A study of Mus musculus with 10 samples.

Results

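The 10 genes described here encode the machinery that cuts, transports and displays peptides on MHC class I, the molecules through which nearly every nucleated cell shows samples of its own proteins to CD8 T cells and natural killer cells. They were chosen by name for this function, and all 10 were found among the 56691 genes of the deposited table. *H2-K1* and *H2-D1* encode the classical heavy chains of this mouse strain, and *B2m* encodes beta-2-microglobulin, the light chain that every such heavy chain needs to reach the cell surface. *Tap1* and *Tap2* form the transporter that carries peptides from the cytosol into the endoplasmic reticulum, and *Tapbp* encodes tapasin, which holds empty class I molecules beside that transporter. *Psmb8*, *Psmb9* and *Psmb10* encode the catalytic subunits that turn the proteasome into the immunoproteasome, and *Nlrc5* encodes a transactivator of MHC class I genes. As background, interferons induce these genes together, chiefly through IRF1 and NLRC5, and in the colon they are active in epithelial cells as well as in leukocytes. The immunoproteasome subunits replace constitutive ones in newly built particles and change which peptides are cut, so that a cell exposed to interferon displays other peptides than a resting cell.

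The study asked how ceAF, the fluid around early chick embryos, acts on colitis caused by dextran sulfate sodium (DSS), a polymer that damages the colonic lining when it is given in drinking water. RNA of whole colon tissue was sequenced from 10 mice, 5 in each group, named here by group and replicate number (DSS-1 for replicate 1 of the DSS group). All were C57/BL6 males, 8 weeks old when obtained, and all were given 3% DSS for 7 days. The ceAF group was afterwards gavaged with ceAF at 15 mL/kg for 10 days, whereas whether the DSS mice were gavaged with a vehicle, and whether both groups were killed on the same day, is not given in the sources used here, and if either differed it cannot be told apart from ceAF. Mice given mesalazine or no DSS were not analysed here, so no level below can be set against uninflamed colon. Each library held between 14676471 and 19901549 counts on genes, the medians being 16426125 for the DSS group and 16058782 for the ceAF group. The labelled tissue was checked against its markers, and the colon genes *Car1*, *Slc26a3*, *Aqp8*, *Cdx2* and *Muc2* were present in all 10 libraries, while the small bowel genes *Sis* and *Apoa4* averaged 0.476 and 0.134 FPKM (counts scaled by exon length and library size). The small bowel gene *Fabp6* was higher, with a mean of 21.8 FPKM and a range from 1.56 FPKM in ceAF-4 to 96.2 FPKM in DSS-2. Some libraries stood apart from the rest over all genes. The main axis of variation, with 30.8% of the variance, placed ceAF-1 at 93.5 and the remaining 9 mice between −45.5 and 16.0, and the next axis, with 19.4%, ran from DSS-5 (−45.8) to DSS-1 (60.3). Mitochondrially encoded genes took 9.66% of the counts in ceAF-1 and 9.74% in ceAF-5, against 4.53% to 7.24% in the other mice.

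The class I chains were among the most abundant messages of the colon. Ordered by their mean FPKM over the 10 mice, the members were *B2m* (2347), *H2-K1* (799.8), *H2-D1* (733), *Tapbp* (101), *Psmb10* (74.9), *Psmb8* (39.1), *Tap1* (33.9), *Tap2* (20.2), *Psmb9* (17.2) and *Nlrc5* (10.6). *B2m* lay above 99.95% of the 16545 genes tested and *Nlrc5*, the least abundant member, above 72.9%. Within single mice the order was firm for most neighbours, since *B2m* exceeded *H2-K1*, *H2-D1* exceeded *Tapbp*, *Tapbp* exceeded *Psmb10*, *Psmb10* exceeded *Psmb8*, *Tap1* exceeded *Tap2* and *Psmb9* exceeded *Nlrc5* in 10 of 10 mice. *H2-K1* and *H2-D1* could not be ordered, as *H2-K1* was the higher in 7 of 10 mice and their mean log2 ratio of 0.07 was smaller than its SD of 0.197. *Psmb8* exceeded *Tap1*, and *Tap2* exceeded *Psmb9*, in 9 of 10 mice, with mean log2 ratios of 0.32 ± 0.338 and 0.30 ± 0.255 (SD, n = 10), so these neighbours differed by about their spread. By FPKM, the message for the light chain thus exceeded that of either heavy chain in each mouse, by a mean log2 ratio of 1.52 ± 0.201 (SD, n = 10) over *H2-K1*. These orders depend on the exon lengths used in FPKM, 860 bases for *B2m*, 2938 for *H2-K1* and 2579 for *H2-D1*. In raw counts, not divided by length, *H2-K1* exceeded *B2m* in each mouse, as in DSS-1 with 47832 against 32908. *H2-D1* exceeded *B2m* in DSS-1 (36748) but not in DSS-2 (41000 against 48024).

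Compared to the DSS group, none of the members passed the test for a difference in the ceAF group. All 10 members passed the filter on low counts and entered the two-sided quasi-likelihood test of edgeR, with p-values adjusted after Benjamini and Hochberg over all 16545 genes that passed it. An adjusted p under 0.05 was found for 0 of the 10 members and for 0% of all genes, the smallest adjusted p of any gene being 0.656. At an unadjusted p under 0.05, 0 of the 10 members were called against 1146 genes or 6.93% of all genes, and DESeq2's Wald test, which called 28 genes after adjustment, also gave 0 of 10 members at an unadjusted p under 0.05. The groups overlapped in 10 of 10 members, whereas they did not overlap in 1.24% of all genes. The members' unadjusted p ran from 0.412 to 0.971 in edgeR, their adjusted p from 0.913 to 0.998, and the exact two-sided permutation test over all assignments of the mice, whose smallest possible p is 0.00794, gave 0.317 to 0.984. The fitted values were lower in the ceAF group for 6 members and higher for 4, with a median log2 fold change of −0.10, while 48.6% of all genes were lower and their median was 0.01. These estimates were wide, since the intervals of the members reached from −1.14 to 1.53 on the log2 scale, so that a 2-fold difference between the groups in either direction lay inside the interval of *B2m* and of *Tap1*. Mice of the same group differed widely, as the values per mouse show. In whole tissue, fewer cells of a type and less RNA per cell cannot be told apart, and this holds for each level below.

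*B2m*, the light chain, had 1907, 2399.8, 2563, 2528 and 813 CPM in DSS-1 to DSS-5, and 3460.4, 2576, 2791, 667 and 842 CPM in ceAF-1 to ceAF-5, where CPM are counts scaled to 1 common library size with edgeR's TMM factors. DSS-5, ceAF-4 and ceAF-5 were low, the other 7 mice lay at 1907 CPM or above, and the groups overlapped almost completely, with 2042 ± 736 CPM in the DSS group and 2067 ± 1244 CPM in the ceAF group (mean ± SD, n = 5 each) and a log2 fold change of 0.02, 95% confidence interval −1.01 to 1.05.

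*H2-K1*, the more abundant heavy chain message in most mice, had 2772, 2757, 3013, 2978 and 1288 CPM in DSS-1 to DSS-5, and 3478, 2858, 2925, 768 and 987 CPM in ceAF-1 to ceAF-5. The same 3 mice were low, and the other 7 mice stayed within 2757 and 3478 CPM. The group means were 2562 ± 721 CPM in the DSS group and 2203 ± 1236 CPM in the ceAF group (mean ± SD, n = 5 each), with a log2 fold change of −0.22, 95% confidence interval −1.14 to 0.70.

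*H2-D1*, the other heavy chain, had 2129.6, 2049, 2221, 2280.1 and 1257 CPM in DSS-1 to DSS-5, and 2557, 2414, 2426, 795 and 1001 CPM in ceAF-1 to ceAF-5. Again DSS-5, ceAF-4 and ceAF-5 were the lowest mice, and ceAF-1 to ceAF-3 lay slightly above DSS-1 to DSS-4. The means of 1987 ± 417 CPM in the DSS group and 1838 ± 864 CPM in the ceAF group (mean ± SD, n = 5 each) gave a log2 fold change of −0.11, 95% confidence interval −0.85 to 0.63. Heavy chain genes share part of their sequence, and reads from the shared parts could be counted on either gene, as described further on.

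*Tap1*, the transporter chain whose gene starts beside *Psmb9*, had 156, 229, 207, 257 and 55.3 CPM in DSS-1 to DSS-5, and 271, 258, 334, 53.8 and 70.2 CPM in ceAF-1 to ceAF-5. ceAF-3 was the highest mouse and DSS-5, ceAF-4 and ceAF-5 the lowest, a 6.21-fold range. The log2 fold change was 0.13 (standard error 0.530). *Tap2*, its partner, ranged from 31.7 CPM in ceAF-4 to 109 CPM in DSS-4 with a log2 fold change of −0.09 (standard error 0.359). *Tapbp*, the loading bridge, ranged from 190.5 CPM in ceAF-5 to 508 CPM in DSS-4 with a log2 fold change of −0.25 (standard error 0.298). For both genes the 3 lowest mice were DSS-5, ceAF-4 and ceAF-5, and the remaining mice of both groups were intermixed.

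**Figure D1:**
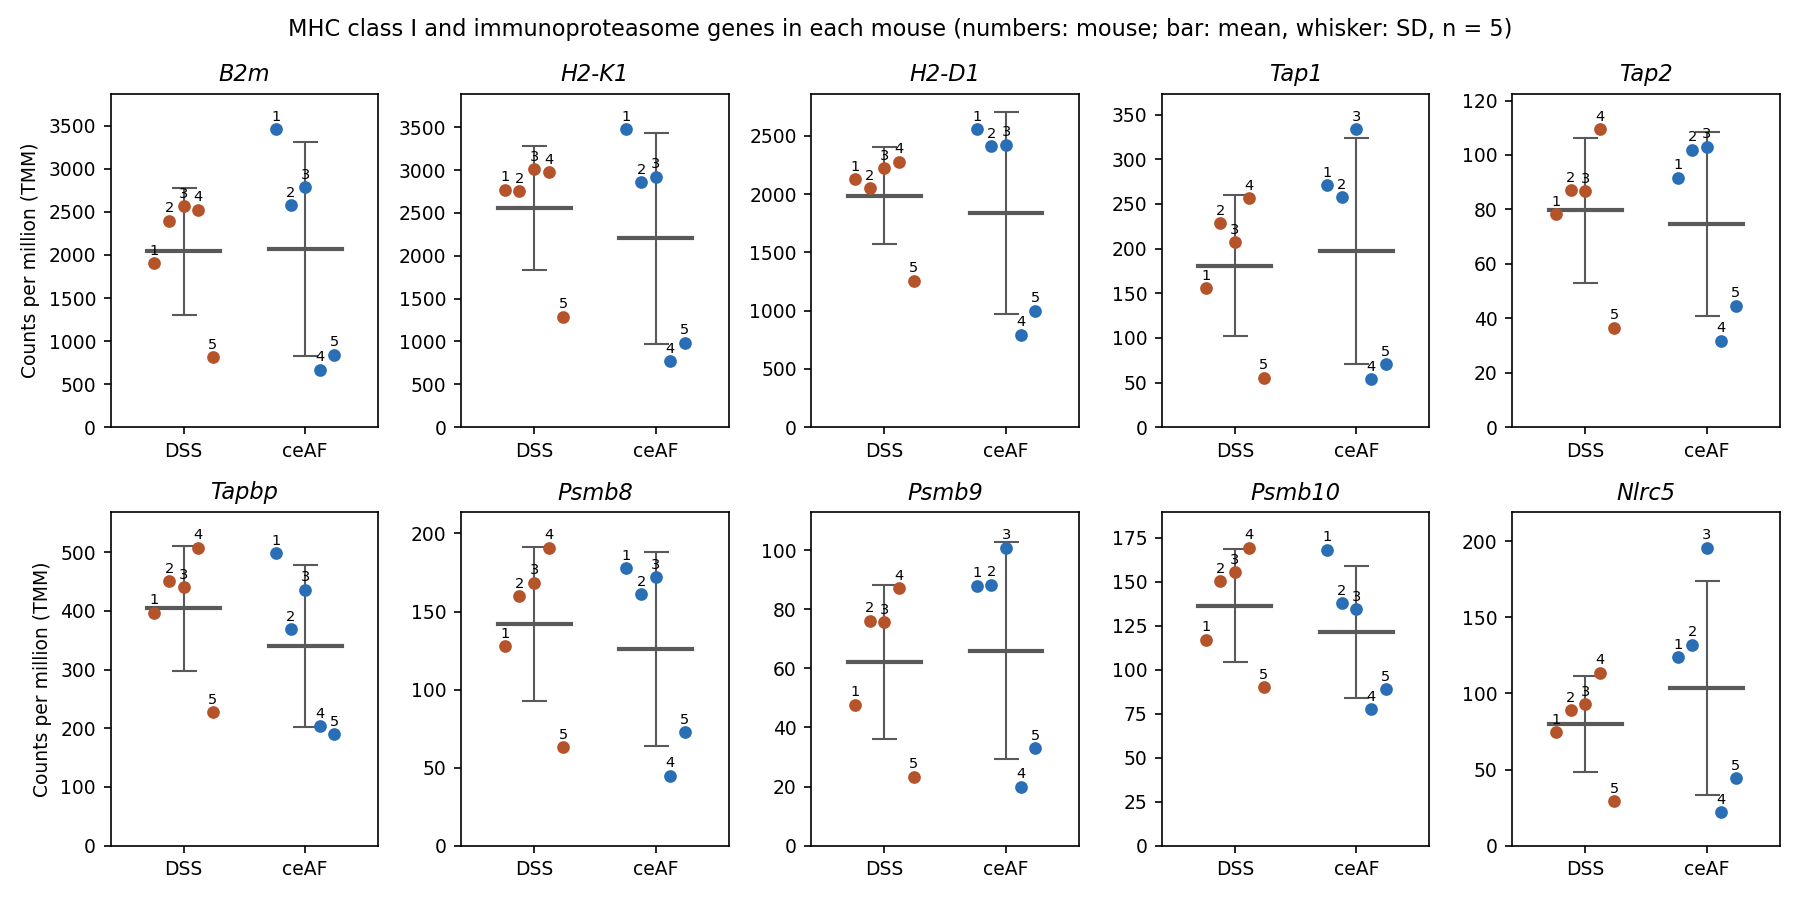
Level of each of the 10 members in each mouse, in TMM-scaled CPM on a linear axis starting at 0; dots are mice labelled with their number, thick bars are group means and whiskers the SD (n = 5 a group). In each panel DSS-5, ceAF-4 and ceAF-5 are the lowest 3 dots, and the groups overlap. Among the other mice, ceAF-1 to ceAF-3 lie above DSS-1 to DSS-4 for *B2m*, *H2-D1*, *Tap1*, *Psmb9* and *Nlrc5*, and the groups are intermixed for the remaining members. This reading sets aside the lowest 3 mice after the values were seen, and some of its margins are small.

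*Psmb8*, the immunoproteasome subunit with chymotrypsin-like activity, had 128, 159.8, 169, 191 and 63.1 CPM in DSS-1 to DSS-5, and 178, 161, 172, 44.9 and 72.6 CPM in ceAF-1 to ceAF-5. The groups overlapped, with 3 mice at 72.6 CPM or below and the others at 128 CPM or above. *Psmb9*, which takes the place of *Psmb6*, had 47.8, 76.2, 75.7, 87.1 and 23.3 CPM in DSS-1 to DSS-5, and 88.0, 88.3, 101, 19.9 and 32.9 CPM in ceAF-1 to ceAF-5. Here DSS-1, at 47.8 CPM, lay between the lowest 3 mice and the rest. *Psmb10*, which takes the place of *Psmb7*, had the narrowest range of the 10 members, from 77.7 CPM in ceAF-4 to 169 CPM in DSS-4, a 2.18-fold range with the same 3 mice lowest. The log2 fold changes were −0.18 (standard error 0.395) for *Psmb8*, 0.09 (standard error 0.461) for *Psmb9* and −0.17 (standard error 0.233) for *Psmb10*.

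The exchange of constitutive for inducible subunits was read as the FPKM ratio of each pair in the same mouse, which does not depend on library scaling. The ratio of *Psmb8* to *Psmb5* was 0.679, 0.929, 0.931, 0.997 and 0.340 in DSS-1 to DSS-5, and 1.20, 0.839, 1.17, 0.310 and 0.360 in ceAF-1 to ceAF-5. By FPKM, *Psmb8* exceeded *Psmb5* in ceAF-1 and ceAF-3 and lay under it in the other mice. The 3 lowest ratios were those of DSS-5, ceAF-4 and ceAF-5. The ratio of *Psmb9* to *Psmb6* was 0.345, 0.600, 0.605, 0.562 and 0.199 in DSS-1 to DSS-5, and 0.688, 0.630, 0.752, 0.182 and 0.243 in ceAF-1 to ceAF-5. By FPKM the constitutive message was the more abundant of this pair in every mouse, and the same 3 mice were lowest. The ratio of *Psmb10* to *Psmb7* was 4.89, 5.47, 6.24, 6.19 and 3.74 in DSS-1 to DSS-5, and 6.77, 4.70, 4.52, 3.31 and 3.51 in ceAF-1 to ceAF-5. Here the inducible message exceeded the constitutive one in 10 of 10 mice, and the same 3 mice were lowest again. Between the groups, the mean log2 ratio differed by −0.12 for *Psmb8* over *Psmb5* (exact permutation p = 0.889), by 0.01 for *Psmb9* over *Psmb6* (exact permutation p = 0.992) and by −0.24 for *Psmb10* over *Psmb7* (exact permutation p = 0.31), each two-sided with n = 5 a group. Adjusted over the 3 ratios by Benjamini-Hochberg, the exact p-values were 0.992, 0.992 and 0.929. The denominators did not vary in this way, since *Psmb5* lay between 39.0 and 63.5 FPKM, *Psmb6* between 31.2 and 40.3 and *Psmb7* between 13.01 and 16.97, and in none of the 3 were those mice the lowest.

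**Figure D2:**
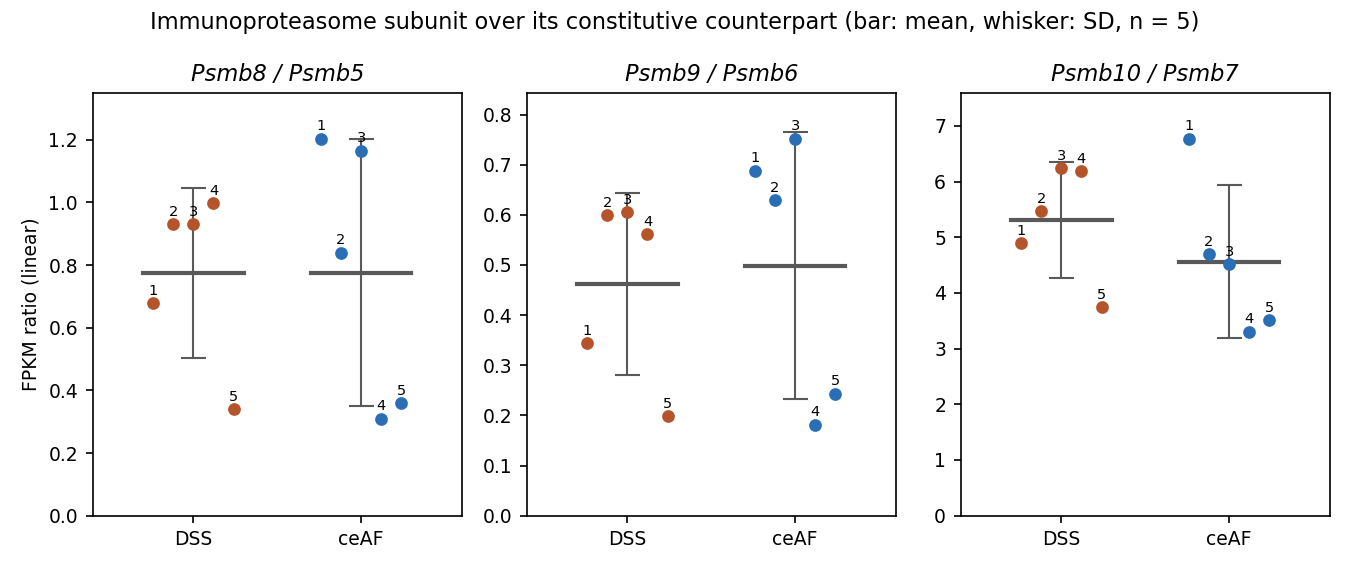
FPKM ratio of each immunoproteasome subunit to the constitutive subunit it replaces, in each mouse, on linear axes starting at 0; dots are mice labelled with their number, thick bars are group means and whiskers the SD (n = 5 a group). DSS-5, ceAF-4 and ceAF-5 have the 3 lowest ratios in each panel, and the groups overlap.

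*Nlrc5*, the transactivator, had the widest range from lowest to highest mouse of the members, with 74.5, 89.1, 92.9, 114 and 29.4 CPM in DSS-1 to DSS-5, and 124, 132, 196, 22.01 and 44.2 CPM in ceAF-1 to ceAF-5. ceAF-3 was far above every DSS mouse and ceAF-4 below all of them, an 8.89-fold range, and the means were 79.9 ± 31.5 CPM in the DSS group and 104 ± 70.5 CPM in the ceAF group (mean ± SD, n = 5 each) with a log2 fold change of 0.37, 95% confidence interval −0.78 to 1.53. The transactivator does not bind DNA alone and needs the RFX, CREB/ATF and NF-Y factors on the promoter. Of the 8 genes listed for these partners, 3 had lower and 5 higher fitted values in the ceAF group, 0 at an unadjusted p under 0.05 in edgeR, with a median log2 fold change of 0.02. *Rfx5* had a log2 fold change of 0.18 (standard error 0.210), *Rfxap* −0.17 (standard error 0.171) and *Rfxank* 0.08 (standard error 0.108), and *Nfyc*, the most abundant of the 8, 0.03 (standard error 0.0962). In none of the 8 were DSS-5, ceAF-4 and ceAF-5 the 3 lowest mice, although *Rfx5* was lowest in DSS-5 at 1.86 FPKM against 3.57 to 5.15 in the other 9 mice.

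DSS-5, ceAF-4 and ceAF-5 were the 3 lowest mice in 10 of 10 members, a pattern noticed in the values, and the same was true of 581 genes or 3.51% of all genes tested. Averaged over the members after centring each gene on its mean over the mice, the log2 level was −0.95 in DSS-5, −1.29 in ceAF-4 and −0.85 in ceAF-5. It was 0.08, 0.35, 0.39 and 0.55 in DSS-1 to DSS-4 and 0.62, 0.47 and 0.63 in ceAF-1 to ceAF-3. The set was therefore low in 1 mouse that had received DSS alone and in 2 that had also received ceAF. The other mice lay between 0.08 in DSS-1 and 0.63 in ceAF-3. For *B2m*, *H2-D1*, *Tap1*, *Psmb9* and *Nlrc5*, ceAF-1 to ceAF-3 all lay above DSS-1 to DSS-4, whereas for the remaining members these mice were intermixed. This split was read after the 3 lowest mice were set aside, and its share over all genes was not counted. Margins could be small, as for *Tap1* with 258 CPM in ceAF-2 against 257 CPM in DSS-4. The members moved together, so they are not separate observations. The gap above the 3 lowest mice differed between members, the next mouse being 1.30 times higher for *Psmb10*, 1.45 times for *Psmb9* and 2.26 times for *B2m*. The spread between mice of a group, as the SD of log2 CPM, had a median of 0.79 over the members and 0.33 over all genes, and *Tap1* (1.08) and *Nlrc5* (1.07) were more variable than 95.1% and 95.0% of all genes. Relative to each other the members varied much less. Over the 45 pairs of members, the SD across mice of the log2 ratio of both genes had a median of 0.32, with the lowest for *Tap2* to *Psmb8* (0.14) and the highest for *Psmb10* to *Nlrc5* (0.68).

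Most tested heavy chains of the MHC class I family had the same 3 lowest mice. Of 18 listed genes, which include *H2-K1* and *H2-D1*, 15 were tested, 6 had lower and 9 higher fitted values in the ceAF group, 0 reached an unadjusted p under 0.05 in edgeR, and the median log2 fold change was 0.06 against 0.01 over all genes. In 10 of the 15 the lowest mice were DSS-5, ceAF-4 and ceAF-5. *H2-T23*, whose product presents leader peptides of other class I chains to natural killer receptors, had 132, 165, 186, 176 and 52.2 FPKM in DSS-1 to DSS-5, and 260.4, 144, 178, 78.4 and 61.4 FPKM in ceAF-1 to ceAF-5. Those 3 mice were lowest here too, and ceAF-1 was the highest. Among the exceptions, *H2-M3*, which presents formylated peptides, had the smallest p of the lower genes (−0.27, standard error 0.338), and *H2-M2* the smallest of the higher ones (0.38, standard error 0.334). *H2-M10.1* had 0 counts in each of the 10 libraries. The 8 tested class I-like genes outside this family did not share the pattern in any case, 5 being lower and 3 higher with a median of −0.04. Among these, *Procr* was lower at an unadjusted p of 0.0248 in edgeR (−0.89, standard error 0.345, adjusted p = 0.68), the 1 gene at that limit. The number was 0 without DSS-1, 0 without DSS-4 and 4 without ceAF-1. Of those 4, 2 were lower and 2 higher, and 11.2% of all genes were at that limit without ceAF-1. *Raet1e* had 0.22 (standard error 0.234), and *Fcgrt*, the neonatal Fc receptor and most abundant of them, −0.16 (standard error 0.251).

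The general helpers of peptide loading and trimming had another order of mice. Of 12 tested genes, 7 were lower and 5 higher, 0 at an unadjusted p under 0.05 in edgeR with a median of −0.07, and in 0 of the 12 were DSS-5, ceAF-4 and ceAF-5 the lowest mice. *Calr*, the chaperone calreticulin, had 205, 236, 212, 223 and 433 FPKM in DSS-1 to DSS-5, and 134, 219, 248, 219 and 213 FPKM in ceAF-1 to ceAF-5. DSS-5 was thus the highest mouse for this chaperone while it was among the lowest for the chains it folds. The log2 fold changes were −0.32 (standard error 0.225) for *Calr*, −0.19 (standard error 0.141) for the chaperone *Canx*, −0.06 (standard error 0.154) for the disulfide isomerase *Pdia3*, 0.06 (standard error 0.137) for the trimming peptidase *Erap1*, 0.02 (standard error 0.217) for the tapasin-related *Tapbpl* and 0.23 (standard error 0.134) for the peptidase *Tpp2*. *Hspa5*, named for its level in DSS-5 after the values were seen, had 266 FPKM there and 49.6 to 116 FPKM in the other 9 mice.

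Within the proteasome, only a part of the genes shared the pattern of the inducible subunits. The 3 constitutive catalytic subunits had log2 fold changes of −0.14 (standard error 0.114) for *Psmb5*, −0.04 (standard error 0.103) for *Psmb6* and 0.06 (standard error 0.0953) for *Psmb7*. The 11 other subunits of the core particle, 2 lower and 9 higher with a median of 0.02 and 0 at an unadjusted p under 0.05 in edgeR, had DSS-5, ceAF-4 and ceAF-5 lowest in 0 cases, and their named genes were *Psma7* (−0.04, standard error 0.0902), *Psma5* (0.08, standard error 0.130) and the most abundant, *Psma6* (0.02, standard error 0.0856). Of the 9 activator and assembly genes, 6 lower and 3 higher with a median of −0.07 and again 0 at that limit, 3 had these mice lowest, namely *Psme1*, *Psme2* and *Pomp*. *Psme1* and *Psme2* encode the subunits of the interferon-inducible PA28 cap, and *Pomp* a chaperone of proteasome assembly. *Psme1* had 76.9, 88.6, 91.1, 94.9 and 48.0 FPKM in DSS-1 to DSS-5, and 96.6, 82.8, 82.1, 49.2 and 59.5 FPKM in ceAF-1 to ceAF-5. Its range was narrower than that of most members, with the other 7 mice at 76.9 FPKM or above. Its log2 fold change was −0.07 (standard error 0.248), that of *Psme2* −0.09 (standard error 0.231) and that of *Pomp* −0.12 (standard error 0.139), while *Psme3*, the subunit of another cap, had 0.06 (standard error 0.120) and *Psmg1* 0.08 (standard error 0.167).

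The interferon gamma arm, which as background is the strongest inducer of the members, was split. Of its 12 tested genes, 6 were lower and 6 higher when the ceAF group was set against the DSS group (median −0.02), 2 of them lower at an unadjusted p under 0.05 in edgeR, 0 after adjustment. *Ifng*, the cytokine itself, had 1.81, 2.72, 2.51, 3.48 and 0.850 FPKM in DSS-1 to DSS-5, and 0.580, 1.29, 0.620, 0.100 and 0.360 FPKM in ceAF-1 to ceAF-5. DSS-1 to DSS-4 were the highest mice and DSS-5 lay among the ceAF mice, with a log2 fold change of −1.92 (standard error 0.555), an unadjusted p of 0.00538 in edgeR and an adjusted p of 0.656. Within each group the mice low in class I were the lowest for *Ifng*, namely DSS-5 in the DSS group and ceAF-4 and ceAF-5 in the ceAF group. ceAF-1 and ceAF-3, the highest 2 mice for *B2m* and *Tap1*, lay between DSS-5 and ceAF-5 for *Ifng*, and the part of this cytokine in the members' levels was not tested. *Irf8* and *Irf9*, transcription factors of the interferon response named after their values were seen, had DSS-5, ceAF-4 and ceAF-5 as their 3 lowest mice. Further log2 fold changes were 0.02 (standard error 0.125) and 0.04 (standard error 0.184) for the receptor chains *Ifngr1* and *Ifngr2*, −0.06 (standard error 0.180) for *Irf1*, 0.23 (standard error 0.132) for *Irf2* and −0.77 (standard error 0.406) for the inhibitor *Socs1*. *Socs3*, the other gene at an unadjusted p under 0.05, had −1.54 (standard error 0.475) with an unadjusted p of 0.00789 in edgeR. *Socs3* was high in DSS-1 (54.1 FPKM) and DSS-5 (68.19 FPKM). DSS-2 to DSS-4, at 13.78 to 15.84 FPKM, lay inside the ceAF range of 7.91 to 18.48 FPKM.

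Most genes listed as receptors on lymphocytes and myeloid cells that read MHC class I had lower fitted values in the ceAF group. Whether each of them, *Lilrb4a* included, binds class I was not checked here. Of 10 tested, 9 were lower, 7 of them at an unadjusted p under 0.05 in edgeR, against 6.93% of all genes in either direction, and 0 after adjustment, with a median log2 fold change of −1.02. *Cd8a* and *Cd8b1* are also on the T cell marker list, all lower with 11 of 12 at that limit. Of the 7, *Lilrb4a* and *Pirb*, inhibitory receptors named after their values were seen, had 29.9 and 11.2 FPKM in DSS-1 and at most 4.93 and 3.42 FPKM in the other 9 mice. Without DSS-1 their unadjusted p was 0.228 and 0.157 in edgeR, and 5 of the 10 receptors were at that limit with a median of −0.59, against 4.26% of all genes. The number was also 5 without ceAF-1 and without ceAF-4. *Cd8b1*, the CD8 co-receptor chain that binds MHC class I on T cells, had 5.93, 5.76, 6.96, 6.0 and 3.74 FPKM in DSS-1 to DSS-5, and 1.42, 1.99, 1.65, 1.13 and 0.320 FPKM in ceAF-1 to ceAF-5. The groups did not overlap for this gene, the lowest DSS mouse being DSS-5, and its log2 fold change was −2.08 (standard error 0.400) with an unadjusted p of 2.97e-04 in edgeR and an adjusted p of 0.656. *Klrd1*, the most abundant of the list, had −0.55 (standard error 0.305) and *Klra7*, the gene that was higher, 0.23 (standard error 0.449), or −0.01 without DSS-5. DSS-5, ceAF-4 and ceAF-5 were the lowest mice for 1 of the 10 receptors, *Klrk1*, named after its values were seen. By mean centred log2 level over a list, they were lowest for the receptors, for the interferon gamma arm and for the heavy chains, 3 of 9 pathway lists, and by summed FPKM for the heavy chains and for the activator and assembly genes. The gap by mean centred level was widest of these 3 lists for the heavy chains, with −1.40, −1.20 and −0.90 in DSS-5, ceAF-4 and ceAF-5 and 0.13 in the next mouse, DSS-1. For the receptors the levels were −0.45, −0.96 and −0.83 with ceAF-1 next at −0.39, and for the interferon gamma arm 0.02, −0.63 and −0.63 with ceAF-2 next at 0.10.

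The 5 tested genes outside the set whose log2 CPM followed the members' mean most closely over the 10 mice, out of 16535, were *H2-Q7* (Pearson r = 0.986), *H2-T22* (0.985), *Rtp4* (0.984), *Ifi27l2a* (0.98) and *Bst2* (0.979). These correlations were the highest found, and 3 mice lay far from the other 7 in these genes, so they are given as a description without a test. How much of each correlation rests on that distance was not tested. In all 5 the lowest mice were DSS-5, ceAF-4 and ceAF-5. A further 5 gene lists were chosen after the values were seen. No list was tested as a whole, and edgeR's values for their single genes are given as a description. All 12 listed genes of the type I interferon response had DSS-5, ceAF-4 and ceAF-5 as the lowest mice, as had 9 of 10 interferon-induced GTPases, 0 of 8 MHC class II genes, 0 of 4 *Hox* genes of colon position and 0 of 6 reference genes. *Hoxb6*, named after its values were seen, was nonetheless low in these 3 mice, at 0.500, 1.59 and 0.480 FPKM, and in DSS-1 (0.670) and ceAF-2 (0.430), against 8.61 to 41.4 FPKM in the other 5 mice. The part of position along the colon in the members' levels was not tested. In the type I list 12 genes were higher in the ceAF group, 0 at an unadjusted p under 0.05 in edgeR, with a median of 0.61 (0.07 without ceAF-3), *Mx1* at 1.31 (standard error 0.838) and the most abundant, *Isg15*, at 0.49 (standard error 0.893). *Isg15*, a ubiquitin-like protein, had 143, 129, 147, 246 and 18.6 FPKM in DSS-1 to DSS-5, and 239, 201, 449, 16.1 and 14.97 FPKM in ceAF-1 to ceAF-5. Its range was wider than that of any member, with ceAF-3 the highest and the same 3 mice lowest. Of the GTPases, 2 were lower and 8 higher with a median of 0.31 (−0.08 without ceAF-3), *Gbp4* at −0.31 (standard error 0.503), *Tgtp1* at 0.73 (standard error 0.802) and the most abundant, *Gbp2*, at −0.30 (standard error 0.532), again 0 at that limit.

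MHC class II, which is displayed mainly by antigen-presenting cells and is also inducible by interferon gamma, showed another order of mice. Its 8 genes were all lower in the ceAF group, 0 at an unadjusted p under 0.05 in edgeR (4 without DSS-5), with a median of −0.55 (−0.32 without ceAF-4). *Cd74*, the invariant chain and most abundant of them, had 416, 697, 580.3, 534 and 92.2 FPKM in DSS-1 to DSS-5, and 250.2, 359, 254, 125 and 473 FPKM in ceAF-1 to ceAF-5. DSS-5 and ceAF-4 were lowest as for class I, but ceAF-5, low in each class I member, was the highest ceAF mouse for *Cd74*. Its log2 fold change was −0.65 (standard error 0.470), and *H2-Aa*, the class II gene of smallest p, had −0.67 (standard error 0.452).

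**Figure D3:**
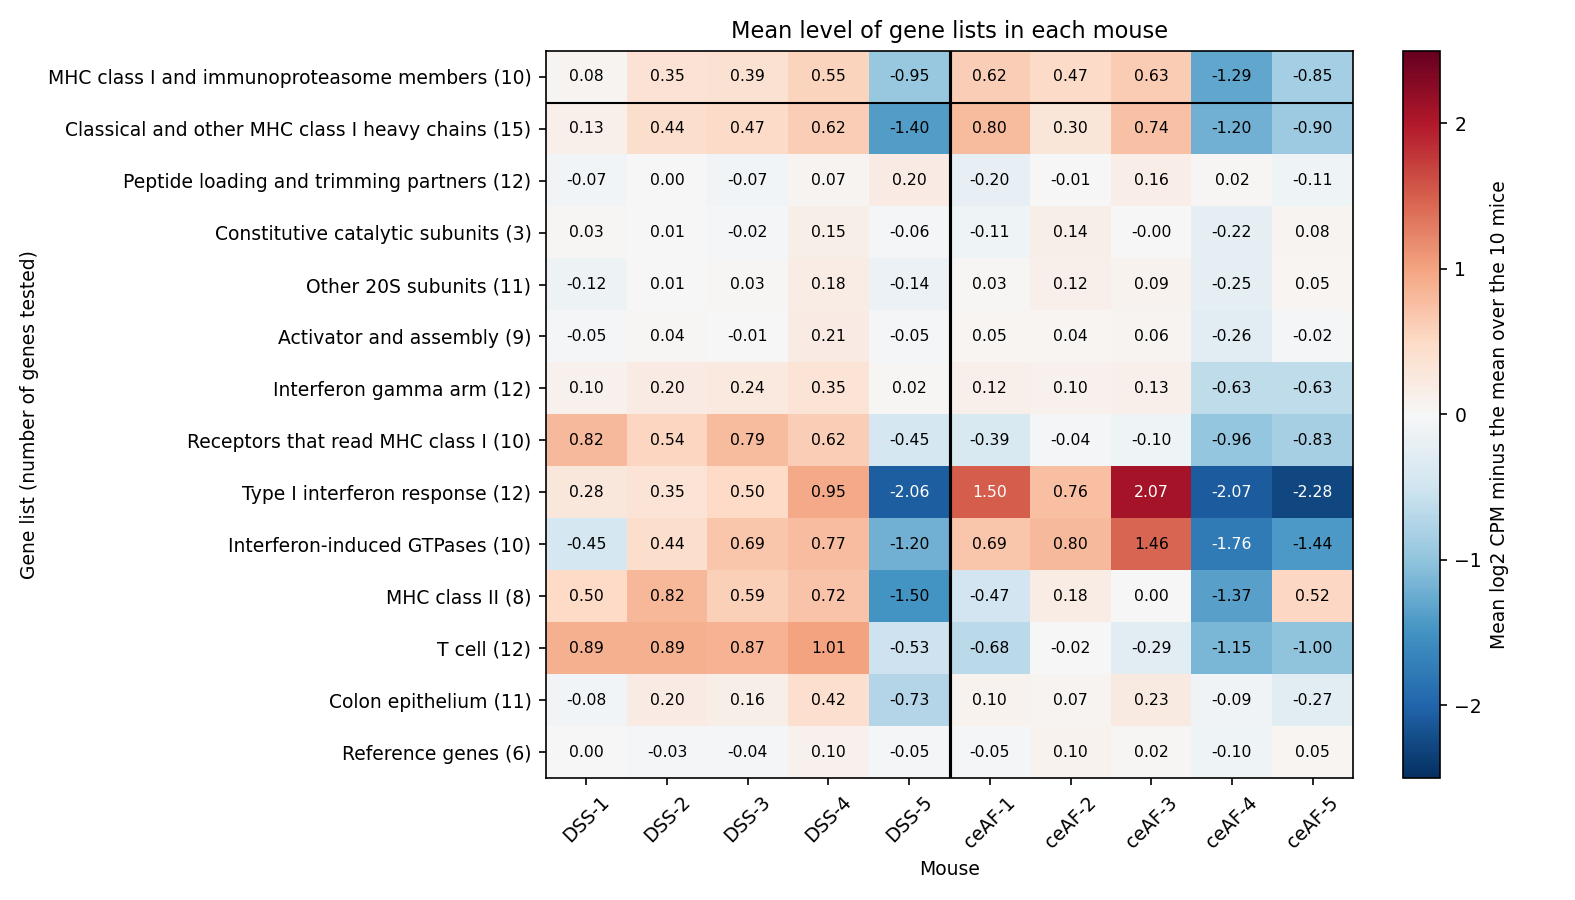
Mean over the tested genes of each list of log2 CPM, after subtracting each gene's mean over the 10 mice; columns are mice, lines are gene lists with the number of genes tested, red is above and blue below the mean, and the vertical line divides the groups. DSS-5, ceAF-4 and ceAF-5 are low for the members (−0.95, −1.29 and −0.85) and for the type I interferon response (−2.06, −2.07 and −2.28), while constitutive catalytic subunits and reference genes lie between −0.22 and 0.15.

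Markers of the cell types of the colon were read in the same mice. Of 15 marker lists, 1 had DSS-5, ceAF-4 and ceAF-5 lowest by summed FPKM, that of the 5 colon defining genes, and 3 by mean centred log2 level, these being colon defining, colon epithelium, and cytotoxic and natural killer cells. The summed level of the colon defining genes was 2129, 4808, 7378, 5066 and 1043 FPKM in DSS-1 to DSS-5, and 9100.1, 2056, 3776, 1974 and 1645 FPKM in ceAF-1 to ceAF-5. The most abundant of them was *Car1*, a carbonic anhydrase of surface colonocytes with 93.3 FPKM in DSS-5 and 8530.1 FPKM in ceAF-1, and it set most of the difference between these mice in the sum. The 3 lowest mice were the members' lowest mice, though ceAF-2 and DSS-1, at 2056 and 2129 FPKM, were close to ceAF-4. Gene by gene this held for 1 of the 5, *Car1*. *Cdx2* went partly with it, being lowest in DSS-5 (29.65 FPKM) and ceAF-5 (39.19 FPKM). ceAF-2 was next for *Cdx2* (47.24 FPKM), and ceAF-4 had 89.4 FPKM. *Slc26a3* was higher only in ceAF-2 than in DSS-5 (272 FPKM), with ceAF-5 next (226 FPKM), *Muc2* was highest in ceAF-4 (666 FPKM) and *Aqp8* higher only in ceAF-2 than in ceAF-5 (646 FPKM). The mean centred levels in DSS-5, ceAF-4 and ceAF-5 were −1.06, −0.09 and −0.48, with ceAF-2 next at −0.05. Of these genes 3 were lower and 2 higher after ceAF, their median being −0.10, *Muc2* at −0.20 (standard error 0.264) and *Aqp8* at 0.34 (standard error 0.329), and none was at 0 in any mouse. The 11 epithelial markers summed to 7947, 11245, 13465, 12065 and 5457 FPKM in DSS-1 to DSS-5, and 14733, 8944, 10328, 7890.2 and 8206 FPKM in ceAF-1 to ceAF-5. DSS-5 was lowest, ceAF-4 lay just below DSS-1, and ceAF-5 lay between DSS-1 and ceAF-2. Their mean centred levels were −0.73, −0.09 and −0.27 in DSS-5, ceAF-4 and ceAF-5 and −0.08 in DSS-1, and 2 of the 11 genes, *Car1* and *Krt20*, the latter named after its values were seen, had these mice as the 3 lowest. Of the 11, 5 were lower and 6 higher with a median of 0.07, *Vil1* at 0.20 (standard error 0.182) and *Car1* at −0.10 (standard error 1.04). The part of epithelial composition in the members' levels was not tested.

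T cell, cytotoxic and general leukocyte markers had lower fitted values in the ceAF group, and their part in the members' levels was not tested. The 12 T cell markers summed to 50.3, 51.8, 53.2, 51.6 and 22.2 FPKM in DSS-1 to DSS-5, and 17.4, 23.6, 20.1, 12.4 and 14.2 FPKM in ceAF-1 to ceAF-5. DSS-1 to DSS-4 stood above the other 6 mice, and ceAF-4 and ceAF-5 were the lowest 2. By mean centred log2 level these 6 mice were at −0.53 in DSS-5, −0.68, −0.02 and −0.29 in ceAF-1 to ceAF-3, and −1.15 and −1.0 in ceAF-4 and ceAF-5. All 12 were lower, 11 at an unadjusted p under 0.05 in edgeR and 0 after adjustment (1 without DSS-5, *Cd3g* at an adjusted p of 0.0366), with a median of −1.23, *Cd3g* at −1.47 (standard error 0.265) and the most abundant, *Thy1*, at −1.08 (standard error 0.229). The 6 tested cytotoxic and natural killer markers, all lower with a median of −0.75, were led by *Gzma* (−0.49, standard error 0.385), and 1 of them, *Nkg7* (−1.68, standard error 0.466), was at an unadjusted p under 0.05. They summed to 34.4, 101, 102, 89.0 and 34.3 FPKM in DSS-1 to DSS-5, and 48.7, 67.5, 31.2, 21.5 and 26.6 FPKM in ceAF-1 to ceAF-5. By mean centred log2 level the 3 lowest mice were DSS-5 (−0.73), ceAF-4 (−0.62) and ceAF-5 (−1.25), with DSS-1 at −0.05 and ceAF-3 at −0.27. The number at that limit was 3 without DSS-1 and without ceAF-2, and 2 without DSS-5. The 5 general leukocyte markers summed to 172, 75.7, 87.6, 76.8 and 38.6 FPKM in DSS-1 to DSS-5, and 22.7, 55.8, 50.5, 24.8 and 53.1 FPKM in ceAF-1 to ceAF-5. ceAF-1, the mouse with the highest *B2m*, had the lowest leukocyte sum, and by mean centred log2 level ceAF-4 (−1.16) and ceAF-1 (−1.15) were lowest. All 5 were lower, 4 at that limit, with a median of −1.06 (−0.70 without DSS-1), *Coro1a* at −1.25 (standard error 0.415) and *Cd52* at −1.07 (standard error 0.361).

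The remaining marker lists had medians under 0 in the ceAF group with all mice, and in none were DSS-5, ceAF-4 and ceAF-5 the 3 lowest mice by sum or by mean centred level. The 7 B cell markers had a median of −0.69 and 0 at an unadjusted p under 0.05 in edgeR (*Cd79b* −0.85, *Cd79a* −0.73), and the 4 plasma cell markers −0.45 with 1 (*Derl3* −0.96, *Jchain* −0.41). The 8 macrophage markers had a median of −0.49 with 2 at that limit (*Adgre1* −0.58, *C1qa* −0.62), the 5 dendritic cell markers −0.37 with 0 (*Xcr1* −1.06, *Itgax* −0.26) and the 5 tested neutrophil markers −3.98 with 5 (*S100a9* −5.15). Over the mice left out, the number at that limit was 0 to 3 for the macrophage and 0 to 2 for the dendritic cell markers. The dendritic cell median ran from −0.85 without ceAF-5 to −0.12 without ceAF-1, the plasma cell median from −0.60 without ceAF-3 to −0.16 without ceAF-1, and the endothelial median from −0.64 without ceAF-4 to −0.09 without ceAF-1. Without DSS-1 the neutrophil median was −1.97 with 1 gene at that limit, and the B cell, fibroblast, and neuronal and glial medians were above 0, at 0.61, 0.11 and 0.21. Neutrophil sums were dominated by DSS-1, at 2528 FPKM against 1.27 to 276 FPKM in the other 9 mice, and for 7 of 10 members DSS-1 was the fourth lowest mouse. Endothelial markers had a median of −0.30 (*Pecam1* −0.46), fibroblast markers −0.29 (*Lum* −0.91, *Col3a1* −0.02), smooth muscle markers −0.12 (*Acta2* −0.26), neuronal and glial markers −0.16 (*S100b* 0.44, *Uchl1* −0.11) and the 2 tested small bowel markers −0.53 (*Fabp6* −1.03), each with 0 genes at that limit. Without ceAF-4 there were 3 endothelial genes at that limit, and without DSS-2 the small bowel median was 0.98. The *Hox* list had a median of 0.19 (*Hoxd13* 2.91, *Hoxb13* −0.04), and the 6 reference genes a median of −0.00, or 0.00295 with upper quartile scaling (*Hprt* −0.07, *Tbp* 0.25, *Actb* −0.15), each with 1 gene higher at that limit.

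The members also share their place in the genome. By the deposited positions, whose build is not given in the sources used here, 7 of the 10 lie on chromosome 17 within the major histocompatibility complex, *Nlrc5* and *Psmb10* lie on chromosome 8 and *B2m* on chromosome 2. *Psmb9*, *Tap1*, *Psmb8* and *Tap2* follow each other within 34335 bases, from 34400961 to 34435295 on chromosome 17. Among the 91 other tested genes between *Tapbp* and *H2-D1*, a span of 1351603 bases, DSS-5, ceAF-4 and ceAF-5 were the lowest mice in 5 (5.49%), against 3.51% of all genes. These 5 were *Btnl1*, *C2*, *Csnk2b*, *Gpank1* and *Zbtb22*, named after their values were seen. The 3 members on chromosomes 2 and 8 had the same 3 lowest mice as the 7 on chromosome 17.

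Several members share sequence or ground with other genes, so parts of their counts are uncertain. Of the stretches of 50 bases in GENCODE M21 transcripts, 9.63% of those of *H2-K1* and 12.8% of those of *H2-D1* occur in transcripts of other genes, chiefly *H2-Q10* for the former and *H2-Q1* for the latter, against 0% for *B2m* and *Psmb10*. The share was highest for *Tapbp*, at 23.2% and chiefly with *Gm19412*, and it was 11.9% for *Psmb8*, 11.6% for *Tap2*, 4.19% for *Psmb9*, 3.33% for *Tap1* and 0.338% for *Nlrc5*. How reads that fit several genes were counted is not given in the sources used here, so a shift of reads among the heavy chains could not be seen. *Tap1* and *Psmb9* overlap over 212 bases on opposite strands, and *Nlrc5* overlaps *9330175E14Rik* over 748 bases, which had 36 to 226 counts against 369 to 3567 for *Nlrc5*. *Tapbp* overlaps *Zbtb22* on the same strand over 3422 bases, with 416 to 750 counts for *Zbtb22* and 3408 to 9028 for *Tapbp*. The library protocol marks no strand, so reads of genes that overlap in antisense cannot be told apart. Opposite *B2m*, *Tap2*, *Psmb8* and *Psmb10* the overlapping genes had at most 45 counts in any library.

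Since the members moved together from mouse to mouse, the bases before their transcription starts are shown, as given by RefSeq on GRCm38.p6, from 250 bases before the start up to the start. Promoters were found for 8 of the 10 members, in 9 windows of 300 bases with both starts of *H2-K1*, and were searched on both strands for the Y box letters ATTGG bound by NF-Y, for the core of the interferon-stimulated response element (ISRE; GAAA, any 2 bases, GAAA), for the letters of the gamma-activated site (GAS; TTC, any 3 bases, GAA), for the NF-kappa-B consensus and, added after the sequences were seen, for TGACG, the core of a CREB/ATF site. *Tap2* and *Nlrc5* were not matched. Counted by gene, a gene holding the letters if any of its windows did, the Y box letters were in 6 of the 8 members and in 41.1% of all 27025 genes with a promoter, and TGACG was in 5 of 8 and 23%. *Psmb9* and *Tap1* share 1 match to each, so these are 5 and 4 of 7 separate stretches. The NF-kappa-B consensus was in 3 of 8 and 5.14%, 2 of the 3 being the similar heavy chain promoters, the ISRE core in 1 of 8, that of *B2m*, and 3.99%, and the GAS letters in 1 of 8, that of *Psmb8*, and 9.55%. The window of *Psmb10* held none of these letters, that of *Tapbp* only the Y box letters. Short motifs occur by chance in many promoters, so a match describes the letters and not a site in use. Only the exact letters were searched. A site that departs from them would go unmarked, so a promoter without a match, such as those of the heavy chains for the ISRE core, may still hold one. The capitals below mark every match. *B2m*, at chr2:122147437-122147686 on the plus strand, carries the ISRE core, the NF-kappa-B consensus 3 bases after it, TGACG and the Y box letters in that order. The NF-kappa-B match is on the other strand, as is a further TGACG after the start of *B2m*.
B2m: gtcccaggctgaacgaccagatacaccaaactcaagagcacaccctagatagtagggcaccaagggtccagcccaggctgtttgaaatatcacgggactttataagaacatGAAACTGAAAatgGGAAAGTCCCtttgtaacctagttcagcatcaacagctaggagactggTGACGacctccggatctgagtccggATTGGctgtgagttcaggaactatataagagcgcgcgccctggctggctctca
The heavy chain promoters, *H2-K1* before its outer start at chr17:34000348-34000597 on the minus strand and *H2-D1* at chr17:35262844-35263093 on the plus strand, have 2 overlapping matches to the NF-kappa-B consensus, then TGACG and the Y box letters, with a further Y box on the other strand, which in *H2-K1* begins at position 9 after the outer start and so lies beyond the printed stretch, and 167 of 191 aligned bases before their starts are identical (87.4%).
H2-K1: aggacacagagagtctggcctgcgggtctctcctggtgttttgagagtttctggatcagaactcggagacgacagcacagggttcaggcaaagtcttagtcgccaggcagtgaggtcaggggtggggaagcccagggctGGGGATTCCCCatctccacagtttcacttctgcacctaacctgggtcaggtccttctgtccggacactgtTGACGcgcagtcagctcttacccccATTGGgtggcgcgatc
H2-D1: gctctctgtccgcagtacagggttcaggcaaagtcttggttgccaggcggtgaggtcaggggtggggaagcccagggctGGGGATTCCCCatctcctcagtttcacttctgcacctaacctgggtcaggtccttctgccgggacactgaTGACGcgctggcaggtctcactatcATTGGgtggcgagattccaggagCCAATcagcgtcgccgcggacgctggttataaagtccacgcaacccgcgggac
*Psmb9* and *Tap1* start 225 bases apart on opposite strands, and the whole stretch between both starts, at chr17:34187331-34187555, is given in the direction of *Tap1*; the Y box letters lie beside the start of *Psmb9*, on the strand of that gene, and TGACG begins 86 bases before the start of *Tap1*.
Psmb9-Tap1: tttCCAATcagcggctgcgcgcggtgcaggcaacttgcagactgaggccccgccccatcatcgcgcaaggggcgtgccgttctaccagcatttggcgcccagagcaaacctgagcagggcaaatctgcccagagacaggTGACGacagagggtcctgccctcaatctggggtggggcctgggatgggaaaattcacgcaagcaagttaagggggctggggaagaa
*Psmb8*, at chr17:34197945-34198194 on the plus strand, has the GAS letters and none of the others.
Psmb8: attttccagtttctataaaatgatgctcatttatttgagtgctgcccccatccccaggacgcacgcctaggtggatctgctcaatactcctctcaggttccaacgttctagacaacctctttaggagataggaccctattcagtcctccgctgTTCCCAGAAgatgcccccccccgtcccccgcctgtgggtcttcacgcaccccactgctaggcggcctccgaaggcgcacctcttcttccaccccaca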

How the data were processed

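Mouse colon RNA was sequenced from poly(A) libraries primed at random. The submitters' processing notes name cutadapt 1.9.1 and HISAT2 2.2.1; the counting program, genome build and annotation are not given in the sources used here. The authors deposited raw counts per gene and FPKM values; each FPKM was checked to be the count scaled by exon length and library total. In edgeR 4.0.16 (R 4.3.3), filterByExpr (minimum count 10) kept 16545 genes and TMM factors scaled the libraries before the quasi-likelihood test, a call being a Benjamini-Hochberg adjusted p under 0.05. The prior count for log2 CPM was 1. DESeq2 1.42.0, limma 3.58.1, other scalings and filters, a replicate block and leaving out each mouse were alternatives, and edgeR's test was checked on simulated counts. The members, 9 pathway lists and 15 marker lists were chosen with earlier results of these data known, and 5 lists were added after the values were seen. Named genes were the members, their proteasome, loading, interferon gamma and RFX partners, the gene of smallest p in each direction and the most abundant of every list, and the 5 genes nearest by Pearson r; some of them are not reported here. The members had at least 334 counts in each mouse. No 2 libraries of a group were copies (chi-square per gene 14.6 to 148 over 20 pairs), and that they come from separate mice rests on the labels.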

Additional observations from a re-analysis of the deposited data

Results flagged for a closer look

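In 3 of 26 tests of the lowest or highest mouse of a group, DSS-5 lay far below the other mice of the DSS group. Its gap to the nearest mouse, divided by the range of the group, both in log2 CPM, was 0.742 for *B2m*, 0.895 for *H2-K1* and 0.82 for *H2-D1*, above Dixon's 95% critical value of 0.71 for 5 samples. In linear CPM it was 0.625 for *B2m*, under that value, 0.852 for *H2-K1* and 0.774 for *H2-D1*. Chance flags about 1 in 20 groups, and these 3 genes share the same 5 mice, so they are not separate observations. With DSS-5 left out, the fitted log2 fold changes were −0.17 for *B2m*, −0.37 for *H2-K1* and −0.23 for *H2-D1*.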

How the results depend on the processing

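At an unadjusted p under 0.05, 0 of the 10 members were called under each of the 18 alternatives. The number of genes called after adjustment was 0 with edgeR, voom and limma, 28 with DESeq2's Wald test and 0 to 3 when each mouse was left out in turn, 3 being the value without DSS-5; the cause was not tested. The median log2 fold change of the members ranged from −0.26 to 0.10 over the mice left out. Fold changes this close to 0 turned in sign easily. *B2m* was −0.12 with the replicate number as a replicate block, −0.21 with voom and sample weights and −0.18 with limma on log2(FPKM + 1). *Tap1* was −0.0686 with voom and −0.0687 with limma, and *Psmb9* was −0.069 with voom and −0.0407 with limma. Leaving out each mouse gave −0.25 to 0.25 for *B2m*, −0.45 to 0.0107 for *H2-K1*, −0.26 to 0.0891 for *H2-D1*, −0.14 to 0.38 for *Tap1*, −0.26 to 0.11 for *Tap2*, −0.35 to 0.0498 for *Psmb8* and −0.11 to 0.33 for *Psmb9*, and for the log2 ratios −0.39 to 0.16 for *Psmb8* over *Psmb5* and −0.27 to 0.32 for *Psmb9* over *Psmb6*. *Tapbp*, *Psmb10* and *Nlrc5* kept their sign under each alternative, but over the mice left out they ran from −0.44 to −0.10, from −0.32 to −0.0342 and from 0.0154 to 0.64. The log2 ratio of *Psmb10* over *Psmb7* ran from −0.40 to −0.14, the former without ceAF-1 (exact permutation p = 0.0794). With RLE size factors or upper quartile scaling, 28 of 29 list medians kept their sign, the reference genes being the exception, and counts of lower genes moved by at most 1. The labels share mouse numbers between groups. Same-numbered mice correlated by −0.25 to 0.29 in their deviations, with the own number best in 2 of 10. These values show no pairing by number, but so few mice cannot exclude one. The replicate block gave 0 genes called and a median of −0.16. Over the mice left out, the list medians kept their sign in 12 of 29 lists and turned in 17, of which the B cell markers had the median farthest from 0. Counts of genes at an unadjusted p under 0.05 moved from 0 to at most 1 in the loading partners and in the colon defining, epithelial, fibroblast and neuronal and glial lists, and from 1 to 0 in the *Hox* and reference lists.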
